A study of Homo sapiens with 4 samples.

Results

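ID1, ID2, ID3 and ID4 encode the inhibitor of DNA binding proteins, and they were examined here together with SMAD1, SMAD5, SMAD6, SMAD7, BAMBI and HES1 in ovarian cancer cells treated with RAME. RAME is rosmarinic acid methyl ester, an ester of a plant phenol found in rosemary. These 10 genes were taken from a table of 25737 by their gene symbol, and each was found once. They were chosen because ID1 and ID2 were among the largest rises between RAME and DMSO in these same libraries. The RAME against DMSO values of the 10 genes are therefore given as a description and not as a test. The data are 4 mRNA libraries of cells labelled SKOV-3, an established human ovarian cancer line. A pair of libraries came from cells given DMSO, the solvent, and the other pair from cells given 40 µM RAME for 24 h. One line, 1 dose and 1 time were sequenced, and the labels do not say whether replicates were separate cultures, so the spread between them may be technical.

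ID proteins carry a helix-loop-helix segment but lack the basic stretch that contacts DNA. They bind E proteins and other basic helix-loop-helix factors and keep them off DNA, which in many cell types holds back differentiation and CDK inhibitor genes. ID genes are classic targets of BMP signalling. A BMP ligand joins type I and type II receptor kinases, the receptors phosphorylate SMAD1 and SMAD5, and these enter the nucleus with SMAD4. SMAD6 and SMAD7 are inhibitory SMADs that act as feedback, BAMBI is a decoy receptor without a kinase domain, and HES1 is a helix-loop-helix repressor best known as a Notch target.

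Reads assigned to genes summed to between 1441575 and 2543566 per library, the RAME pair being the shallower. Replicates of each group were distinct libraries, since their counts differed beyond sampling noise (chi-square over its degrees of freedom, 28.8 for DMSO and 15.4 for RAME). The markers that define the labelled cell type were largely missing. Of 13 epithelial and ovarian cancer markers, 10 had at most 3 reads over all 4 libraries. KRT7, KRT19, EPCAM and ERBB2 were at 0 in every library, and PAX8 had 19, 18, 24 and 9 reads. The summed level of the 13 was 10.4 and 8.43 CPM (reads of the gene scaled to a common library total) with DMSO and 18.7 and 8.66 CPM with RAME. Of 16 markers of fibroblasts, endothelium and immune cells, 11 had at most 3 reads. COL1A2 held most of the fibroblast reads (42 and 58 with DMSO, 14 and 12 with RAME). The part of these markers in the results below was not tested, and the cells are called by their label.

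The sequences just before the start sites are shown for the genes with the most reads that were higher in both RAME libraries, ID1, ID2, ID3 and HES1. They are the 250 bases upstream of the start in RefSeq on build GRCh38.p14, whereas the reads were aligned to hg19, and all 10 genes matched the RefSeq table. Capitals mark 3 motifs on either strand. CCAAT is the box bound by NF-Y, TATAAA is the TATA box, and TGGGAA is the core bound by RBPJ, the DNA-binding protein of the Notch pathway. The ID1 window is chr20:31605039-31605288 (+ strand), the ID2 window chr2:8681806-8682055 (+ strand), the ID3 window chr1:23559502-23559751 (− strand) and the HES1 window chr3:194135898-194136147 (+ strand).
ID1: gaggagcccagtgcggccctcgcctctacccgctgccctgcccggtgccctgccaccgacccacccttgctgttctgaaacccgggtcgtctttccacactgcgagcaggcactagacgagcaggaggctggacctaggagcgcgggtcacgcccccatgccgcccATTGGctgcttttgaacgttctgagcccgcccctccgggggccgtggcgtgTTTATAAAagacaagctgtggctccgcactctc
ID2: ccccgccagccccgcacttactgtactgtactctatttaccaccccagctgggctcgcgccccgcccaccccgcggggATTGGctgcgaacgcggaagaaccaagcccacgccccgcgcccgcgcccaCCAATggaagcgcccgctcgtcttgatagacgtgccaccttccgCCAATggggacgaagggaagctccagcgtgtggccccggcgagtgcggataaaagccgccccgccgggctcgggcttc
ID3: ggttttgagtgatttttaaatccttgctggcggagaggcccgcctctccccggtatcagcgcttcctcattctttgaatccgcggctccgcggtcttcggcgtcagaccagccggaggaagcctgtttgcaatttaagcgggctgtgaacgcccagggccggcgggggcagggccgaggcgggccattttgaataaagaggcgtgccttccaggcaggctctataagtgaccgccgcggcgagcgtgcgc
HES1: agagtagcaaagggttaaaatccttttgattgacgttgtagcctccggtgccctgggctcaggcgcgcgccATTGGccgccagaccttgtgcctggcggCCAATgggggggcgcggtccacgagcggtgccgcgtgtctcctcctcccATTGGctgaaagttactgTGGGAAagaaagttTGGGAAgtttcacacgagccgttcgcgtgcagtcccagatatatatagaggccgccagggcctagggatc

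ID1 held 1 CCAAT match at 84 bases before the start and a TATAAA run on both strands, overlapping at 33 and 31 bases. ID2 held CCAAT at 172, 122 and 78 bases and HES1 at 179, 151 and 102 bases, while ID3 had no match to the 3 marked motifs. HES1 also held TGGGAA at 84 and 70 bases. CCAAT was found in at least 1 window of ID1, ID2, ID4, SMAD1, BAMBI and HES1, and in 32.0% of all 35116 windows of this length. TATAAA was in windows of ID1, ID4, SMAD1 and SMAD7 and in 10.7% of all, and TGGGAA in windows of SMAD5, SMAD7 and HES1 and in 20.8% of all. SMAD1 and SMAD7 have several start sites in the table, so they had more windows to match. Both strands were also searched for motifs of the BMP and stress pathways. GGCGCC, a GC-rich SMAD site, was in windows of SMAD1 and BAMBI only among the 10 genes (16.4% of all windows). The palindromic SMAD box GTCTAGAC was in that of SMAD6 alone (0.182% of all). CACGTG, an E-box, was in 1 window of SMAD1 (6.34% of all), and TGACGTCA, the cAMP response element, was in none (1.65% of all). CACNAG, the N-box that HES proteins bind, was in windows of ID1, SMAD1, BAMBI and HES1 (32.0% of all), at 165, 132 and 58 bases before the HES1 start. A match is a run of letters and not a measured binding site. Sites farther than 250 bases before the start were not searched, so no match here does not mean that a gene lacks the site.

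ID1 went from 44 and 26 reads in the DMSO libraries to 433 and 659 in the RAME libraries. In CPM normalized across libraries this was 18.4 and 9.96 against 312 and 381. The level was 14.2 ± 5.94 CPM with DMSO and 346 ± 48.4 CPM with RAME (SD, n = 2 each), a log2 fold change of 4.61 with a standard error of 0.40. Both RAME libraries lay far above both DMSO libraries, and the DMSO pair differed by 1.84-fold. ID2 went from 248 and 185 reads to 1588 and 2134, or from 103 and 70.8 CPM to 1145 and 1233 CPM. Its means were 87.1 ± 23.0 and 1189 ± 62.1 CPM (SD, n = 2 each), and its log2 fold change was 3.77 with a standard error of 0.33. The groups did not overlap, and the RAME pair agreed within 1.08-fold. By log2 fold change ID1 ranked 13 and ID2 ranked 31 among the 4517 genes with enough reads to test.

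The step of ID3 was smaller. Its reads were 249 and 178 with DMSO and 168 and 405 with RAME, or 104 and 68.2 against 121 and 234 CPM. The log2 fold change was 1.05 with a standard error of 0.38. The groups did not overlap after scaling, but RAME replicate 1 was only slightly above DMSO replicate 1, and RAME replicate 2 was 1.93 times RAME replicate 1. Without RAME replicate 2 the log2 fold change was 0.50, and without RAME replicate 1 it was 1.44. ID4 was barely detected, with 5 and 3 reads against 2 and 7. Its ratio of CPM over the groups was 1.81 with an exact 95% interval of 0.619 to 5.38. All intervals here are computed from reads, cover counting error only and leave out the spread between libraries. The reads carry no molecular identifiers, so repeat reads of 1 molecule are not told apart and the intervals may be too narrow. A difference in ID4 was not detectable at this depth.

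**Figure D1:**
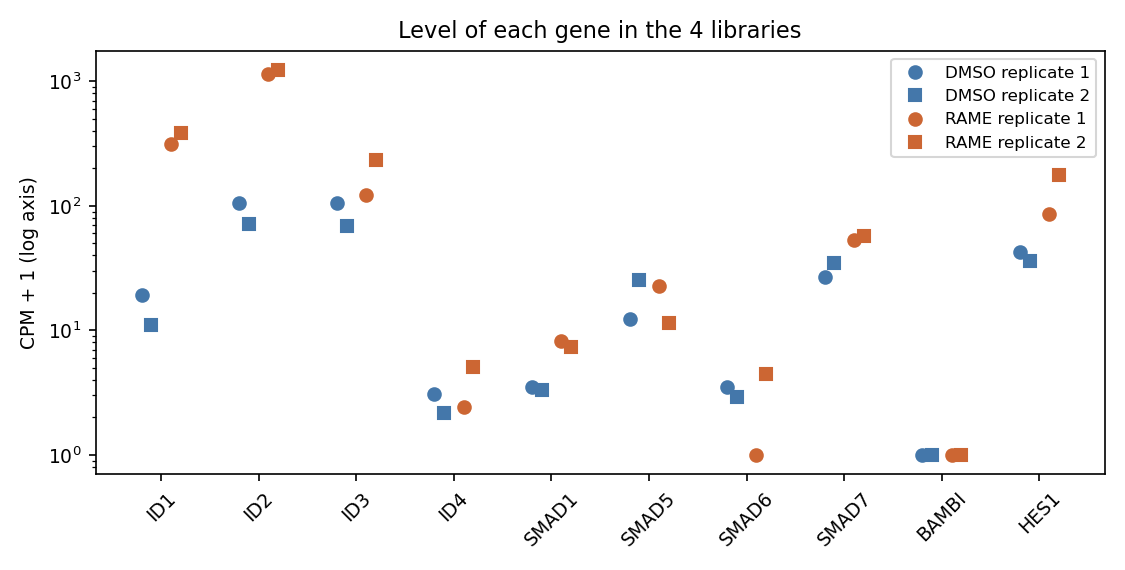
Level of each of the 10 genes in each library, as CPM plus 1 on a log axis. Each point is 1 library (blue DMSO, orange RAME, circles replicate 1, squares replicate 2), and BAMBI lies on the floor of the axis with 0 reads in all 4 libraries while ID1 and ID2 show the widest gaps between the groups.

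The make-up of the ID reads is also given as a description. Larger shares of ID1 and ID2 with RAME follow from their rises, on which the genes were chosen. The library kit reads the 3′ end of transcripts, so a transcript gives about 1 read whatever its length and reads of different genes can be set side by side. ID1 made up 8.06% of the reads of the 4 ID genes in DMSO replicate 1 (95% Wilson interval 6.06 to 10.6) and 6.63% in DMSO replicate 2 (4.57 to 9.54). With RAME it made up 19.8% (18.1 to 21.5) and 20.6% (19.2 to 22.0). ID2 took 45.4% and 47.2% with DMSO and 72.5% and 66.6% with RAME. ID3 took 45.6% and 45.4% with DMSO, near the share of ID2, and 7.67% and 12.6% with RAME. ID2 and ID3 thus had like shares in both DMSO libraries and unlike shares in both RAME libraries. The 4 genes together had 189 ± 54.9 CPM with DMSO and 1715 ± 192 CPM with RAME (SD, n = 2 each), a ratio of the means of 9.08. In bulk libraries more RNA per cell and more cells that hold it cannot be told apart.

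**Figure D2:**
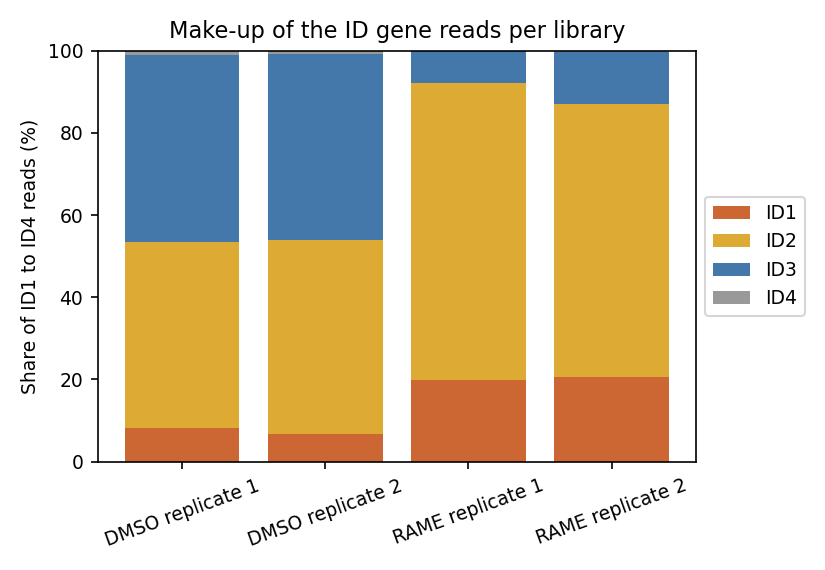
Share of the reads of ID1, ID2, ID3 and ID4 held by each gene, in percent, for the 4 libraries. Each bar is 1 library and sums to 100%, and the ID3 segment is 45.6% and 45.4% with DMSO and 7.67% and 12.6% with RAME. The level of ID3 itself was not lower with RAME (86.0 ± 25.2 CPM with DMSO, 178 ± 79.8 CPM with RAME, SD, n = 2 each).

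Some reads near ID2 may come from its antisense gene, since the strand setting of the count is not given. ID2-AS1 had 4 and 7 reads with DMSO and 10 and 9 with RAME, far fewer than ID2. Antisense reads assigned to ID2 would be missing from that count, so it sets no limit on them.

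The SMAD genes had no common direction. Among all genes tested SMAD7 was at percentile 54.0 of mean CPM, SMAD5 at 32.7 and SMAD1 at 2.92, and SMAD6 had too few reads to test. SMAD7, the general inhibitory SMAD, had 62 and 88 reads with DMSO and 73 and 97 with RAME, or 25.9 and 33.7 against 52.6 and 56.0 CPM. Both RAME libraries were above both DMSO libraries, with a log2 fold change of 0.87 and a standard error of 0.38. SMAD1, a signal-carrying SMAD, had 6 and 6 reads against 10 and 11, or 2.50 and 2.30 against 7.21 and 6.35 CPM. Its log2 fold change was 1.47 with a standard error of 0.72, and counting error alone allowed a ratio between 1.32 and 6.27. SMAD5, the partner of SMAD1, had 27 and 64 reads against 30 and 18. The groups overlapped, with DMSO replicate 1 at 0.459 times DMSO replicate 2 and RAME replicate 2 at 0.481 times RAME replicate 1, and the log2 fold change was −0.17 with a standard error of 0.57. Its sign turned without DMSO replicate 2 or RAME replicate 2, with a range of −0.78 to 0.49 over the 4 libraries left out. SMAD6, the inhibitory SMAD tied most closely to BMP receptors, had 6 and 5 reads against 0 and 6, a ratio of 0.876 with an exact 95% interval of 0.266 to 2.58. No reads were counted for the antisense genes of SMAD1 or SMAD5, which likewise sets no limit on antisense reads assigned to SMAD1 or SMAD5.

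BAMBI had 0 reads in all 4 libraries. A count of 0 allows up to 3 reads over a group, which is 0.599 CPM with DMSO and 0.962 CPM with RAME. This limit holds only if BAMBI transcripts are captured and assigned in this count, which was not tested. Neither its presence below that level nor a difference could be seen.

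HES1 went from 99 and 91 reads to 119 and 307, or from 41.3 and 34.8 CPM to 85.8 and 177 CPM. The groups did not overlap, and the means were 38.1 ± 4.56 and 132 ± 64.7 CPM (SD, n = 2 each). The log2 fold change was 1.79 with a standard error of 0.39. As for ID3, RAME replicate 2 was the higher library, by 2.07-fold. Over all genes tested the median of this ratio between the RAME libraries was 1.00, and 8.48% of genes had a larger one than HES1 and 10.2% a larger one than ID3. ID1 and ID2 had ratios of 1.22 and 1.08. Without RAME replicate 2 the log2 fold change of HES1 was 1.18.

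**Figure D3:**
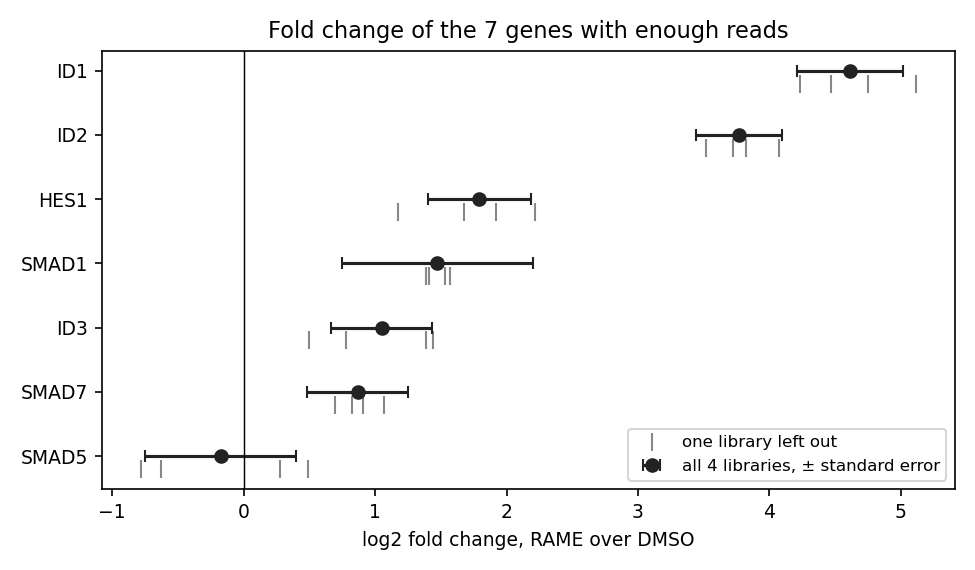
Log2 fold change of RAME over DMSO for the 7 genes with enough reads. Black points and bars are the value from all 4 libraries ± its standard error, grey ticks the 4 values with 1 library left out, and the ticks of SMAD5 fall on both sides of 0 while those of the other 6 genes stay above it.

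Of the 10 genes, 7 had enough reads to be tested in the fit across all genes, and ID4, SMAD6 and BAMBI did not. In that fit ID1, ID2 and HES1 were called higher with RAME at an adjusted p under 0.05, a call made for 6.46% of all genes tested. Both RAME libraries lay above both DMSO libraries for ID1, ID2, ID3, SMAD1, SMAD7 and HES1, as they did for 31.1% of all genes tested, and below them for none of the 7 (29.5% of all genes tested). Nothing is read from either count, because the genes were chosen on this contrast. The call of HES1 was lost without RAME replicate 2, and those of ID1 and ID2 were kept in each of the 12 alternatives run with a test. These alternatives use the same libraries that chose the genes, so they too are only a description.

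With DMSO, ID2 and ID3 had the highest levels of the 10 genes and did not differ beyond their spread. HES1 (38.1 CPM) and SMAD7 (29.8 ± 5.54 CPM) came next. SMAD5 (17.9 ± 9.37 CPM) and ID1 (14.2 CPM) followed and did not differ beyond their spread, and SMAD1, SMAD6 and ID4 lay between 1.62 and 2.40 CPM. With RAME the order was ID2, ID1, ID3 (178 ± 79.8 CPM), HES1, SMAD7 (54.3 ± 2.41 CPM) and SMAD5 (16.0 ± 7.94 CPM). The means of ID3 and HES1 lay within the spread between libraries. Within each RAME library ID3 was the higher, at 121 against 85.8 CPM in replicate 1 and 234 against 177 CPM in replicate 2. ID1 was below SMAD7 in both DMSO libraries and above ID3 in both RAME libraries, which restates the rise on which it was chosen.

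The genes whose pattern over the 4 libraries was most like that of ID1 were CRYAB, OSER1 and DDIT4, at distances of 0.60, 0.78 and 0.85 in log2 CPM after each gene's own mean was removed. Those most like ID2 were OSER1, PDIA4 and HSPA8 (0.24, 0.27 and 0.33), out of 3615 genes averaging at least 20 reads a library. CRYAB and HSPA8 encode heat shock proteins, PDIA4 a protein disulfide isomerase of the endoplasmic reticulum, and DDIT4 a restraint on mTORC1. OSER1 had 62 and 43 reads with DMSO and 473 and 516 with RAME, close to the step of ID2. With 4 libraries this likeness mostly says that these genes are high in both RAME libraries.

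The question that follows is how the rest of the pathway compared, and 181 other genes in 10 lists were examined for it. A read was found for 123 and 64 passed the read filter. Of the 64, 4 were higher and 7 lower with RAME at an adjusted p under 0.05 in edgeR. That is 17.2% of the 64, beside 13.5% of all 4517 genes tested (6.46% higher and 7.08% lower). The median log2 fold change of the 64 was −0.21, beside 0.01 over all genes tested. Without DMSO replicate 1 only 1 was higher and 4 lower.

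Few ligand genes were read. Of 33 BMP and TGF-beta ligand genes 15 had a read and 3 could be tested. BMP2 and BMP7 had 0 reads throughout, BMP4 had 2 reads in all, and BMP6 had 7 and 3 reads against 2 and 9. INHBA, which encodes the subunit of activin A, had 18 and 43 reads against 37 and 83 (edgeR adjusted p = 0.0607, log2 fold change 1.64 ± 0.53 SE), so its groups overlapped in reads but not in CPM. GDF11 had a log2 fold change of 0.96 and did not pass. GDF9 was the only ligand gene called (edgeR adjusted p = 0.0166, log2 fold change −3.11), and its value is uncertain. Its 213, 67, 5 and 16 reads followed those of the next gene in the table, UQCRQ, which had 226, 71, 13 and 18, and the call did not hold in limma-voom or without DMSO replicate 1.

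Genes of BMP and activin receptors were among those that fell. Of 7 tested receptors and coreceptors 3 were lower and none higher (4 did not pass), with a median log2 fold change of −0.73. Not all lay on the lower side, since TGFBR2, the type II receptor of TGF-beta, stood at 4 and 7 reads with DMSO and 9 and 20 with RAME, and RGMA, a BMP coreceptor, at 144 and 299 with DMSO and 258 and 235 with RAME. Their log2 fold changes of 2.03 ± 0.73 and 0.88 ± 0.37 (SE) did not pass. ACVR2A, a type II receptor for activins and BMPs, went from 360 and 332 reads to 56 and 56, or from 150 and 127 CPM to 40.4 and 32.3 CPM. Its log2 fold change was −1.93 with a standard error of 0.33 (adjusted p = 0.00683 from edgeR). ACVR1, the type I receptor ALK2, went from 306 and 155 reads to 15 and 45 (edgeR adjusted p = 0.0168, log2 fold change −2.32 ± 0.51 SE), with DMSO replicate 1 at 2.15 times replicate 2. BMPR2, the type II receptor of BMPs, went from 464 and 477 reads to 106 and 171, or from 194 and 183 CPM to 76.4 and 98.8 CPM (edgeR adjusted p = 0.0399, log2 fold change −1.10 ± 0.31 SE). In all 3 genes both RAME libraries were below both DMSO libraries, which held for 29.5% of all genes tested. The calls of ACVR2A and ACVR1 held in each of the 12 alternatives. That of BMPR2 was lost in 5, which included leaving out DMSO replicate 1 or either RAME library. ACVR2A and BMPR2 are also among the genes that the study picked as lower on these samples, so their direction is not independent evidence. BMPR1A and BMPR1B, the other BMP type I receptors, had too few reads to test (1 and 1 against 3 and 1, and 8 and 4 against 1 and 3).

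SMAD4, the shared partner of the signal-carrying SMADs, had 210 and 200 reads against 67 and 85 (edgeR adjusted p = 0.149, log2 fold change −0.75 ± 0.33 SE). SMAD2, which carries activin and TGF-beta signals, had a log2 fold change of 0.56 and did not pass either. SMAD3 was at −0.61 and did not pass. SMAD9 had 6 and 1 reads with DMSO and 5 and 11 with RAME and could not be tested. Of 5 tested secreted modulators 1 was lower, CRIM1, which encodes a membrane protein that binds BMPs. It went from 810 and 513 reads to 117 and 175 (edgeR adjusted p = 0.0183, log2 fold change −1.52 ± 0.35 SE), and the call did not hold without DMSO replicate 1 or RAME replicate 1. FST, the activin antagonist follistatin, and BMP1, a protease that frees BMPs, had log2 fold changes of −0.55 and 1.39 and did not pass. TWSG1 had 29 and 37 reads against 5 and 6 (edgeR adjusted p = 0.0673, log2 fold change −1.88 ± 0.63 SE) and did not pass. It is also in the study's own selection of lower genes. CHRD had a log2 fold change of 0.81 and did not pass. Of 23 tested intracellular SMAD regulators 1 was higher and none lower, and 22 did not pass, with a median of −0.03. TOB1, an antiproliferative gene whose product binds SMADs in mouse, went from 324 and 368 reads to 457 and 691, or from 135 and 141 CPM to 329 and 399 CPM. Its log2 fold change was 1.40 with a standard error of 0.30 (adjusted p = 0.0146 from edgeR), and its call held in each of the 12 alternatives. CREBBP, a histone acetyltransferase that SMADs recruit, and USP15, a deubiquitinase, had log2 fold changes of −1.30 and −0.92 and did not pass (adjusted p = 0.0554 and 0.0673 from edgeR).

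**Figure D4:**
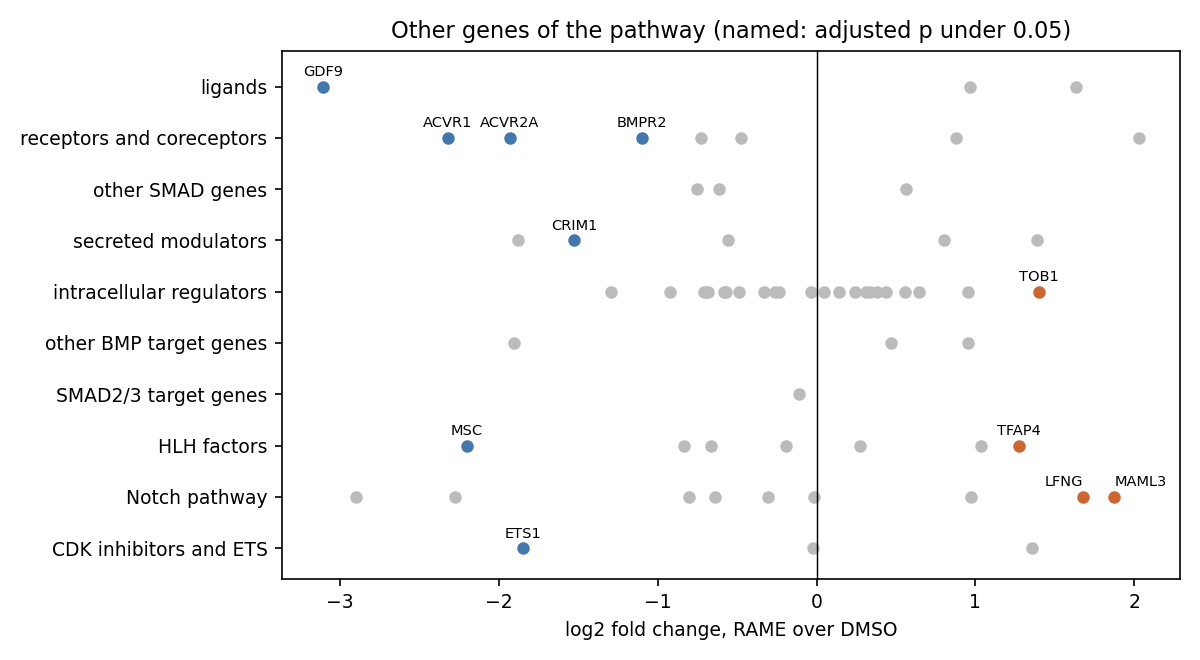
Log2 fold change of RAME over DMSO for the tested genes of the 10 lists, 1 point a gene, orange where higher and blue where lower at an adjusted p under 0.05. ACVR1, ACVR2A and BMPR2 stand on the lower side of the receptor list, and the points of the intracellular regulators lie on both sides of 0.

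Among other BMP target genes no call was made. Of 13, 10 had a read and 3 could be tested, of which edgeR called 0, with 2 at an unadjusted p under 0.05, and DESeq2 and limma-voom called 0. DLX2, a homeobox gene, had 200 and 215 reads against 163 and 352, with a log2 fold change of 0.96 and a standard error of 0.34 (adjusted p = 0.0835 from edgeR). Its RAME replicate 2 was the higher of the RAME libraries, as for ID3 and HES1. GATA2 had a log2 fold change of −1.90 and did not pass, but it ranged from −3.66 to −1.07 with 1 library left out and was called lower without DMSO replicate 2 or RAME replicate 1. HEY1 had 0 reads and ATOH8 had 1. Of 11 targets of SMAD2 and SMAD3 only FN1, the fibronectin gene, could be tested, with a log2 fold change of −0.11 and a standard error of 0.32.

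The helix-loop-helix factors that ID proteins can bind, or that share their E-box sites, moved in both directions. Of 7 tested 1 was higher, 1 lower and 5 did not pass. TCF4 and TCF12, the E protein genes with the most reads, had 663 and 838 reads against 360 and 455, and 1330 and 1057 against 304 and 549. Scaled to depth, TCF4 was at 277 and 321 CPM against 260 and 263 CPM, a log2 fold change of −0.19 with a standard error of 0.29, and did not pass. The log2 fold change of TCF12 was −0.84 with a standard error of 0.32 (adjusted p = 0.0983 from edgeR). TCF3, the E protein gene of E12 and E47, had 3 and 6 reads against 8 and 7 and could not be tested. MSC, the repressor musculin, went from 120 and 180 reads to 25 and 14 (edgeR adjusted p = 0.0156, log2 fold change −2.20 ± 0.48 SE), a call lost without RAME replicate 2. TFAP4 went from 78 and 141 reads to 168 and 153 (edgeR adjusted p = 0.0426, log2 fold change 1.27 ± 0.37 SE), a call lost in 5 of the 12 alternatives, among them limma-voom and the fits that left out DMSO replicate 1 or RAME replicate 1.

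Around HES1, of 9 tested Notch pathway genes 2 were higher, none lower and 7 did not pass, with a median log2 fold change of −0.30. LFNG, a glycosyltransferase that modifies Notch, went from 34 and 43 reads to 79 and 72 (edgeR adjusted p = 0.0282, log2 fold change 1.68 ± 0.43 SE). MAML3, a Notch coactivator gene, went from 14 and 17 reads to 37 and 33 (edgeR adjusted p = 0.0409, log2 fold change 1.87 ± 0.54 SE). Both calls were lost without DMSO replicate 1 or RAME replicate 1. That of MAML3 was lost in 6 of the 12 alternatives, also without DMSO replicate 2 and in DESeq2 and limma-voom. The other coactivator genes of this family lay on the lower side and did not pass. MAML1 had 23 and 15 reads against 2 and 1, and MAML2 had 15 and 17 against 1 and 3 (adjusted p = 0.0522 and 0.0944 from edgeR). MAML2 is in the study's own selection of lower genes. HES7, another HES gene, had 22 and 16 reads against 26 and 20, with a log2 fold change of 0.98, and did not pass. The receptor genes NOTCH1 to NOTCH4 had at most 3 reads in any library, and RBPJ had 3115 and 4124 reads against 1636 and 1991. In CPM RBPJ was at 1299 and 1579 against 1179 and 1150, with a log2 fold change of −0.30 and a standard error of 0.26 that did not pass.

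Of the CDK inhibitor and ETS genes tied to ID proteins, 3 of 6 could be tested. ETS1, a transcription factor gene whose protein ID1 antagonizes, went from 963 and 821 reads to 103 and 215, or from 402 and 314 CPM to 74.3 and 124 CPM. Its log2 fold change was −1.85 with a standard error of 0.35 (adjusted p = 0.0102 from edgeR), and its call held in each of the 12 alternatives. ETS1 is again in the study's own selection of lower genes. ETS2 had a log2 fold change of 1.36 and did not pass except without DMSO replicate 2, and CDKN1B, the gene of p27, stood at −0.03 with a standard error of 0.28. CDKN1A and CDKN2A, other CDK inhibitor genes that ID proteins can restrain, had too few reads to test in either group. CDKN1A had 3 and 0 reads with DMSO and 2 and 1 with RAME, and CDKN2A 0 and 0 against 1 and 0.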

How the data were processed

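RNA of 4 samples of cells labelled SKOV-3 (2 with DMSO, 2 with RAME) was sequenced as 3′ libraries (QuantSeq, single-end 75-base reads). Alignment by the authors used Bowtie2 on hg19, as listed among the submitters' processing notes. The sources used here do not give the aligner's version, the annotation, the counter or its strand setting. The authors deposited raw counts per gene, used here, and normalized values on a log2 scale, used as 1 alternative. The authors' deposited group means on the log2 scale, fold or ratio and p-value were not used.

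Counts of 4517 of 25737 genes passed filterByExpr (min.count 10, min.total.count 15). They were scaled by TMM and tested with edgeR 4.0.16 (quasi-likelihood, robust) in R 4.3.3, with Benjamini-Hochberg adjustment over all genes tested. Standard errors are the log2 fold change over the root of F. CPM are TMM-normalized. The smallest two-sided p of an exact permutation test is 0.333 in this design. Alternatives were DESeq2 1.42.0, limma-voom (limma 3.58.1), other scalings and filters, a replicate block and each library left out, and a crossed block was added after the data were seen. The code was tested on simulated counts.

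The 10 genes, the lists and the alternatives were chosen with earlier results of these data known. Genes named from a list are the 3 with the smallest p among those averaging at least 20 reads, and all called genes where 5 or fewer were called. Others, such as BMP2, BMPR1A, TGFBR2, RGMA, SMAD3, SMAD9, TWSG1, CHRD, TCF4, MAML1, MAML2, RBPJ and CDKN1A, were named after their values were seen. Likeness is the Euclidean distance of log2 CPM (prior count 2) over the 4 libraries. Promoter sequences are from RefSeq.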

Additional observations from a re-analysis of the deposited data

How the results depend on the processing

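Among all genes tested 612 were called (292 higher, 320 lower). Leaving out 1 library gave 323 to 857, with 323 without DMSO replicate 1 and 344 without RAME replicate 1. Upper quartile scaling, which shifted the median log2 fold change by 0.11, gave 381 higher and 261 lower. Library size alone gave 255 higher and 389 lower and no read filter 306 higher and 481 lower, so the split between the directions depends on these settings. Of the other pathway genes 11 were called. Leaving out 1 library gave 5 to 15, with 5 without DMSO replicate 1. The labels share replicate numbers but state no pairing. With the replicate number as a block 437 genes and 7 pathway genes were called, the latter without LFNG, MAML3, TFAP4 and BMPR2. No call of ID1, ID2 or HES1 changed, which is no test of genes chosen on this contrast. Deviations of same-numbered libraries correlated at −0.34 across genes. The crossed block, added after the data were seen, called 1787 genes and 30 pathway genes. No cause of these shifts was tested.

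Of 394 tested single-gene values under an alternative, over 33 named genes, 356 kept their status and 0 reversed a call. The 356 include values of uncalled genes that stayed uncalled, so they are not a count of calls that held. In 25 a call was lost and in 13 one was gained. Among the gains were ID3 without RAME replicate 1, INHBA in 4, CREBBP in 4 and GATA2 without DMSO replicate 2 or RAME replicate 1. Uncalled values of SMAD5, FN1 and CDKN1B changed sign in some alternatives. The authors' normalized log2 values, used with no test, kept the sign of all 33 genes. Depth limited ID4, SMAD1, SMAD6 and BAMBI, each with 33 reads or fewer over all libraries.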
